A study of Mus musculus with 31 samples.

Results

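Antiviral restriction factors are host proteins that block a step of the viral life cycle inside the cell. The 10 genes described here were chosen by name as a list of such factors, and their rows were taken by gene symbol from the microglial count table and by the same Ensembl identifier from the hippocampal table. All 10 were present in both tables, among 54532 genes in microglia and 48795 in hippocampi. They are *Mx1*, *Mx2*, *Rsad2*, *Bst2*, *Ifitm2*, *Ifitm3*, *Isg20*, *Eif2ak2*, *Zc3hav1* and *Ifi44*.

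Cells that sense foreign or misplaced nucleic acid secrete type I interferon, which acts through its receptor to switch on many interferon-stimulated genes, restriction factors among them. One such sensor is cGAS, which binds cytosolic double-stranded DNA and makes the messenger cyclic GMP-AMP to activate STING, TBK1 and IRF3. Microglia, the resident macrophages of the brain, can sense such DNA and respond to interferon. The proteins act at different steps: the IFITM proteins sit in membranes and hinder fusion of virus with the endosome, BST2 (tetherin) holds budding virions at the cell surface, the MX proteins are dynamin-like GTPases that trap viral nucleoprotein, viperin (*Rsad2*) makes a chain-terminating nucleotide, ISG20 is a 3′ to 5′ exonuclease, PKR (*Eif2ak2*) senses double-stranded RNA and halts translation, and ZAP (*Zc3hav1*) binds CpG-rich RNA.

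Hippocampal tissue and cultured microglia were measured by mRNA sequencing, with a 3′ library kit for all samples per the labels. The study's methods name no kit for the microglial libraries, so what is said below of 3′ reads rests on the labels. Hippocampi came from mice aged 8 to 9 months, 7 non-transgenic (Ntg; 3 females and 4 males) and 6 carrying the human *P301S* tau transgene (*P301S*; 3 females and 3 males), a transgene driven by the mouse prion protein promoter. Primary microglia, cultured from the cortices of newborn pups with granulocyte-macrophage colony-stimulating factor to promote their growth, were *Cgas*+/+ or *Cgas*-/- and received vehicle, fibrils of tau, or HT-DNA (DNA from herring testis, a cGAS ligand), with 3 libraries in each of the 6 groups. The labels call both controls vehicle but name them Ctrl in *Cgas*+/+ and NT in *Cgas*-/- cells, and the paper calls the controls not treated. Whether the controls of the genotypes were handled alike is not stated. The question put to the microglia was whether the interferon response to tau passes through cGAS. The study calls the 3 microglial libraries of a group biologically independent, and the sources do not say whether they came from separate cultures or pups, so p-values measure the spread between these libraries, which may be partly technical.

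Library totals ran from 25953296 to 35779977 counts in hippocampi and from 17037459 to 25174764 counts in microglia. Levels are in CPM, a gene's counts relative to the TMM-scaled size of its library, and differences are log2 fold changes with their standard error (SE) from edgeR's quasi-likelihood test, with p-values adjusted over all genes tested. A gene was called changed at an adjusted p under 0.05 if its log2 fold change also exceeded 1 in either direction in microglia, or 0.5 in the hippocampal tissue. *Cgas* reads fitted the labels: 18.8 to 44.4 CPM in *Cgas*+/+ libraries and 3.76 to 7.45 CPM in *Cgas*-/- libraries, although 3′ reads outside the deleted part do not check the deletion itself. *Mapt* reads were higher in every *P301S* hippocampus (858 to 1125 CPM) than in every Ntg hippocampus (519 to 642 CPM). The cultures held microglia markers, with 7 homeostatic markers summing to 2014 to 3454 CPM, although *Siglech* had 3 counts or fewer in each library of 3 of the 6 groups. Of 7 T cell markers, *Cd3e*, *Cd3d*, *Cd8a* and *Trac* stood at 3 counts or fewer throughout the cultures, and *Cd3g* did so in all groups but *Cgas*-/- tau. *Cd4* and *Lck* were above that in at least 1 library of each group, and the 7 summed to 2.683 to 7.155 CPM.

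Other cell type markers differed with genotype in the cultures, and their part in the results was not tested. With vehicle, the homeostatic markers summed to 3212 to 3317 CPM in *Cgas*+/+ and 2052 to 2171 CPM in *Cgas*-/- libraries, and 9 disease-associated microglia markers to 60390 to 61110 and 70690 to 72310 CPM. The 5 fibroblast markers summed to 2.97 to 5.40 CPM in *Cgas*+/+ and 0.502 to 0.573 CPM in *Cgas*-/- libraries, where *Col1a1*, *Col1a2*, *Dcn* and *Lum* were at 3 counts or fewer. The 7 endothelial markers summed to 105 to 125 and 27.6 to 32.7 CPM, and with HT-DNA to 378 to 389 and 33.1 to 37.2 CPM. In all 4 of these groups *Cldn5*, *Tek* and *Slco1a4* were at 3 counts or fewer. In the *Cgas*-/- groups *Pecam1* and *Ly6c1* were too, so few genes carried these sums. The 6 oligodendrocyte markers summed to 124 to 132 and 70.99 to 75.96 CPM with vehicle and to 203 to 225 and 70.5 to 72.5 CPM with HT-DNA. Of these, *Mog* and *Mobp* were at 3 counts or fewer in the *Cgas*-/- groups. The 6 astrocyte markers summed to 6.74 to 7.18 and 5.72 to 6.87 CPM with vehicle, 10.1 to 12.4 and 5.86 to 8.38 CPM with tau, and 11.6 to 14.4 and 4.86 to 5.99 CPM with HT-DNA. They did not move together. With vehicle, 2 of the 5 tested were called higher and 2 lower in *Cgas*-/- cells, beside 360 and 1005 of 13675 genes. The summed level of 6 neuronal markers was at most 2.13 CPM.

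Interferon-stimulated genes are commonly controlled through an interferon-stimulated response element (ISRE), so the promoters of the members are shown for how they share or lack its letters. RefSeq promoter windows on GRCm38.p6, each reaching from 250 bases before to 50 bases after a start site, were found for 8 of the 10 members (10 windows). The ISRE was searched as GAAANNGAAA on both strands. It occurred in windows of 5 of the 8 members (*Rsad2*, *Bst2*, *Eif2ak2*, *Ifitm2* and *Ifitm3*), against 3.44% of all 32851 windows and 3.99% of 27025 genes. The sequences below run 5′ to 3′ in the direction of transcription and hold the last 150 bases before the start site and the first 30 after it, with the matched letters in capitals.
*Rsad2*, chr12:26456423-26456602, minus strand: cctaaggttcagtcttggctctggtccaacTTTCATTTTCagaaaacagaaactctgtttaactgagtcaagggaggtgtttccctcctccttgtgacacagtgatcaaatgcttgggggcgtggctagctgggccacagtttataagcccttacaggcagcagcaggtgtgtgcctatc
*Bst2*, chr8:71537443-71537622, minus strand: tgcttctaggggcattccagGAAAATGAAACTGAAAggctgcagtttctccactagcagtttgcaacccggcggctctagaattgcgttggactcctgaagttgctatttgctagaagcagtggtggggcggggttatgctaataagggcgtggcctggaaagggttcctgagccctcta
*Eif2ak2*, chr17:78882543-78882722, minus strand: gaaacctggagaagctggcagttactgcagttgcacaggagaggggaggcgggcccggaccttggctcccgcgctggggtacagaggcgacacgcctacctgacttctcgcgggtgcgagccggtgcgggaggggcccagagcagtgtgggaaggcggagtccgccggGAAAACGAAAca
*Ifitm3*, chr7:141010715-141010894, minus strand: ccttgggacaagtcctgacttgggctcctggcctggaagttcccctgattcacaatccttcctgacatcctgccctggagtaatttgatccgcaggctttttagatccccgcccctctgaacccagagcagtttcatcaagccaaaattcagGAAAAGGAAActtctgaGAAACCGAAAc
*Ifitm2*, chr7:140955932-140956111, minus strand: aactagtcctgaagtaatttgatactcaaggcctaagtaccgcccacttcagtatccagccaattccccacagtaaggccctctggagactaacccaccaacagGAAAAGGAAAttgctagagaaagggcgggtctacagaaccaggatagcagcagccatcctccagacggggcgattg
*Ifi44*, chr3:151749881-151750060, minus strand: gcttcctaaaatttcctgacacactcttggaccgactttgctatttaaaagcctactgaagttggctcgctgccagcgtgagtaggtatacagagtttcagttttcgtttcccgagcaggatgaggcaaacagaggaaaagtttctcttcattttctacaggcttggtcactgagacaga
*Bst2* held 2 overlapping matches, starting 130 and 124 bases before the start site. *Ifitm3* held 2 matches just downstream of its start site, at bases 3 and 20, and *Ifitm2* held 1, at 46 bases before it. The first *Ifitm3* match and the *Ifitm2* match have the same letters. *Ifi44*, which had the largest fitted difference among the 9 members tested in hippocampi, had no match in this window, and neither had *Zc3hav1* or *Isg20*. A match is a description of letters and not a mapped binding site.

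The 10 genes lie on 7 chromosomes of GRCm38 (GENCODE M21). *Mx1* (chr16:97447035-97462907, minus strand) and *Mx2* (chr16:97535308-97560900, plus strand) are near each other, and *Mx2* is annotated as a polymorphic pseudogene. *Ifitm2* (chr7:140954837-140955987) and *Ifitm3* (chr7:141009586-141010770) are both on the minus strand of the *Ifitm* cluster, with *Isg20* (chr7:78913424-78920396, plus strand) elsewhere on that chromosome. The others are *Rsad2* (chr12:26442746-26456452), *Bst2* (chr8:71534255-71537456), *Eif2ak2* (chr17:78852564-78882573), *Zc3hav1* (chr6:38305286-38354603) and *Ifi44* (chr3:151730922-151749960), all on the minus strand. In the last 500 transcript bases, which reads from a 3′ kit would mostly cover, 41.91% of the 50-base stretches of *Ifitm2* and 13.97% of those of *Ifitm3* also occurred in transcripts of other genes, each in the other among them, so their counts are uncertain to the extent that such reads were split or dropped. *Ifitm2* also shares 268 of its 655 exonic bases with the model *Gm45717* on the same strand. The other 8 members had no such shared stretch. *Eif2ak2* overlaps *Gm26637* on the opposite strand over 174 of 5113 exonic bases.

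Of the 10 members, 9 followed 1 pattern across the 6 microglial groups, and *Ifitm2* did not. In *Cgas*+/+ cells the 9 were expressed with vehicle, were higher with tau fibrils and, *Zc3hav1* apart, highest with HT-DNA. In *Cgas*-/- cells their means were lowest with vehicle, and with HT-DNA they were 1.02-fold (*Zc3hav1*) to 2.55-fold (*Rsad2*) those with vehicle by the fitted change, leaving aside *Ifi44* at its floor. For these 9 every tau library was above every vehicle library of its genotype. The share of all genes separated in this way was not computed, here or for the similar counts below.

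**Figure D1:**
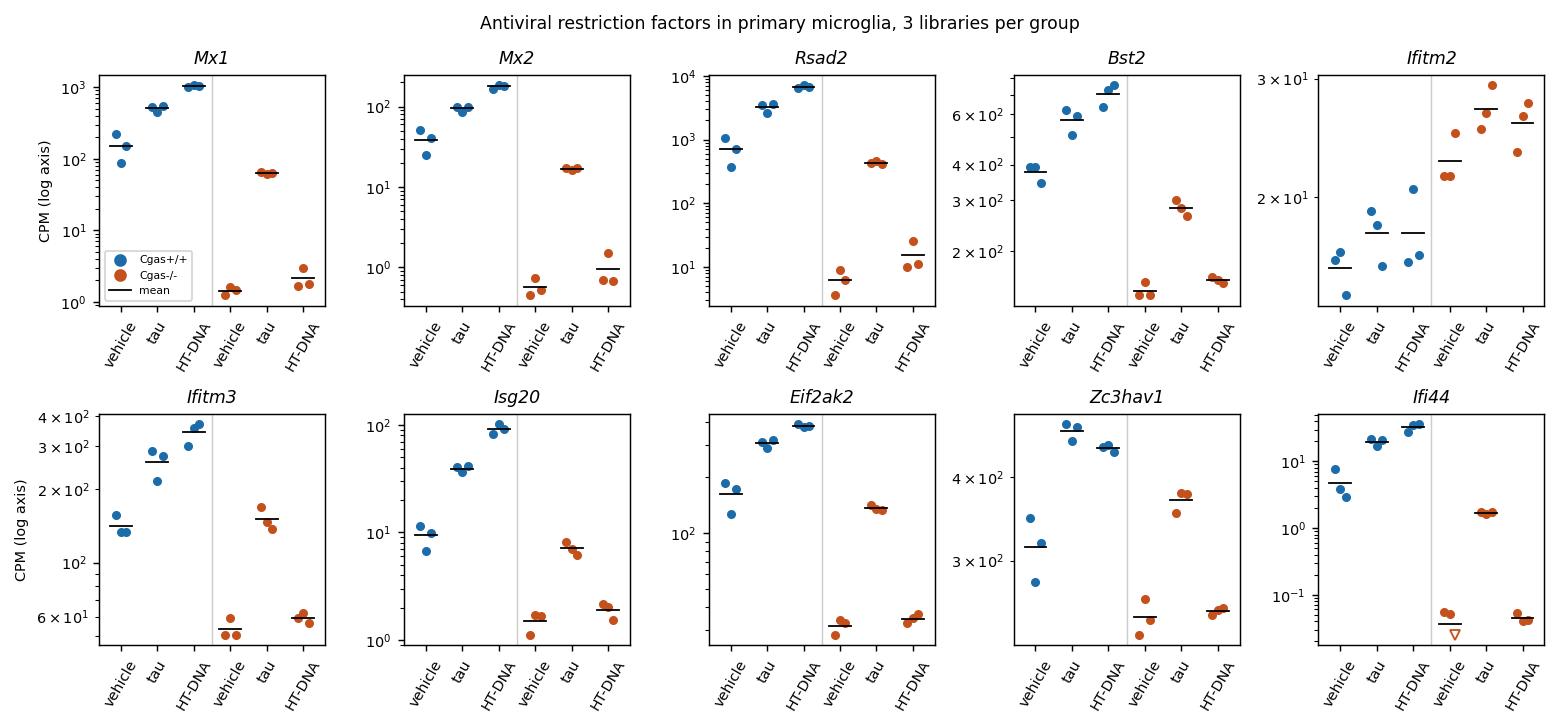
CPM of each member on a log axis, scaled separately for each gene, in the 18 microglial libraries, with *Cgas*+/+ cells in blue and *Cgas*-/- cells in orange. Points are libraries and lines are means of 3, and an open triangle marks a library with no count. Among the vehicle libraries alone, every *Cgas*-/- library lies below every *Cgas*+/+ library for 9 members, and above for *Ifitm2*.

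The *Mx1* libraries read 86.1, 152 and 219 CPM in *Cgas*+/+ cells with vehicle, 445, 525 and 541 CPM with tau and 1001, 1047 and 1071 CPM with HT-DNA. The *Cgas*-/- libraries read 1.23, 1.45 and 1.62 CPM with vehicle, 61.4, 62.3 and 66.2 CPM with tau and 1.64, 1.80 and 2.93 CPM with HT-DNA. No 2 neighbouring groups in the order of the 6 means overlapped. *Mx2* had the same order at lower counts, with *Cgas*+/+ means of 38.9, 94.7 and 178 CPM with vehicle, tau and HT-DNA and *Cgas*-/- means of 0.568, 16.9 and 0.961 CPM, where the vehicle and HT-DNA libraries overlapped. In *Cgas*+/+ cells tau raised *Mx1* by 1.73 ± 0.16 on the log2 scale (SE, 3.31-fold, edgeR adjusted p = 1.06e-09) and *Mx2* by 1.29 ± 0.13 (adjusted p = 3.49e-09). HT-DNA raised them by 2.77 ± 0.17 (adjusted p = 3.83e-14) and 2.20 ± 0.13 (adjusted p = 1.58e-14).

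*Rsad2* read 377, 714 and 1067 CPM in *Cgas*+/+ cells with vehicle, a 2.83-fold spread between the lowest and highest library. With tau it read 2656, 3488 and 3677 CPM, and with HT-DNA 6418, 6821 and 7195 CPM, so the 3 groups did not overlap. In *Cgas*-/- cells it read 3.57, 6.16 and 8.81 CPM with vehicle, 414, 435 and 456 CPM with tau and 10.2, 11.03 and 25.6 CPM with HT-DNA. The *Cgas*-/- tau libraries lay within the range of the *Cgas*+/+ vehicle libraries. *Rsad2* rose by 2.19 ± 0.24 with tau (4.55-fold, edgeR adjusted p = 2.20e-08) and 3.24 ± 0.25 with HT-DNA (9.47-fold, adjusted p = 9.09e-12) in *Cgas*+/+ cells. Its neighbour on the opposite strand *Cmpk2*, 12752 bases away, a mitochondrial nucleotide kinase, rose by 2.27 ± 0.21 with tau (adjusted p = 6.80e-10) and 3.49 ± 0.22 with HT-DNA (adjusted p = 8.91e-14).

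*Isg20* read 6.75, 9.93 and 11.5 CPM in *Cgas*+/+ cells with vehicle, 36.6, 40.2 and 41.0 CPM with tau and 81.9, 90.8 and 101 CPM with HT-DNA. In *Cgas*-/- cells it read 1.12, 1.67 and 1.72 CPM with vehicle, 6.22, 7.04 and 8.11 CPM with tau and 1.55, 2.01 and 2.17 CPM with HT-DNA. All *Cgas*+/+ treatment groups were separate, and in *Cgas*-/- cells only the tau libraries stood apart. Its rise of 3.28 ± 0.12 with HT-DNA in *Cgas*+/+ cells (9.74-fold, edgeR adjusted p = 2.16e-18) stood beside 3.24 ± 0.25 for *Rsad2*, and with tau it rose by 2.07 ± 0.12 (adjusted p = 1.48e-13).

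*Eif2ak2* read 127, 173 and 187 CPM in *Cgas*+/+ cells with vehicle, 288, 310 and 318 CPM with tau and 374, 378 and 387 CPM with HT-DNA. Without *Cgas* it read 28.4, 32.8 and 34.3 CPM with vehicle, 133, 135 and 142 CPM with tau and 32.7, 34.9 and 36.5 CPM with HT-DNA. Tau and vehicle differed by 0.91 ± 0.08 in *Cgas*+/+ cells, just short of the fold threshold (edgeR adjusted p = 4.47e-10) and past it without *Cgas*+/+ vehicle replicate 1 (1.03), and HT-DNA raised *Eif2ak2* by 1.23 ± 0.08 (adjusted p = 3.81e-13). *Zc3hav1* had the flattest profile of the 9, with *Cgas*+/+ means of 315, 469 and 442 CPM with vehicle, tau and HT-DNA and *Cgas*-/- means of 247, 370 and 252 CPM. Tau and HT-DNA differences in *Cgas*+/+ cells were 0.58 ± 0.06 and 0.49 ± 0.06, below the fold threshold, with edgeR adjusted p = 2.22e-09 and 2.14e-08. *Zc3hav1* was the only one of the 9 in which the tau mean exceeded the HT-DNA mean, by 0.08 ± 0.06, which did not pass the test (adjusted p = 0.258).

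Among the membrane proteins, *Bst2* read 345, 391 and 392 CPM in *Cgas*+/+ cells with vehicle, 506, 591 and 620 CPM with tau and 634, 727 and 758 CPM with HT-DNA, against 140, 140 and 156 CPM, 264, 283 and 300 CPM and 154, 158 and 163 CPM in *Cgas*-/- cells. The *Bst2* differences in *Cgas*+/+ cells were 0.61 ± 0.07 with tau and 0.91 ± 0.07 with HT-DNA, both below the fold threshold (edgeR adjusted p = 3.56e-08 and 5.16e-12). *Ifitm3* had *Cgas*+/+ means of 141, 260 and 342 CPM and *Cgas*-/- means of 53.4, 151 and 59.3 CPM with vehicle, tau and HT-DNA. It rose by 1.28 ± 0.09 with HT-DNA in *Cgas*+/+ cells (edgeR adjusted p = 8.73e-13), and its tau difference of 0.88 ± 0.09 fell short of the fold threshold (adjusted p = 4.22e-09).

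*Ifitm2*, which lies in the same cluster, read 14.3, 16.1 and 16.6 CPM in *Cgas*+/+ cells with vehicle, 15.8, 18.2 and 19.1 CPM with tau and 16.0, 16.4 and 20.6 CPM with HT-DNA. In *Cgas*-/- cells it read 21.5, 21.5 and 24.9 CPM with vehicle, 25.2, 26.6 and 29.3 CPM with tau and 23.4, 26.4 and 27.6 CPM with HT-DNA. Groups of 1 genotype overlapped, apart from tau and vehicle in *Cgas*-/- cells, and every *Cgas*-/- library was above every *Cgas*+/+ library. No treatment passed the test for *Ifitm2* (tau 0.17 ± 0.10, edgeR adjusted p = 0.238, and HT-DNA 0.17 ± 0.10, adjusted p = 0.182, in *Cgas*+/+ cells, and tau 0.26 ± 0.09, adjusted p = 0.0588, in *Cgas*-/- cells).

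*Ifi44*, an interferon-induced cytoplasmic protein, read 2.91, 3.89 and 7.58 CPM in *Cgas*+/+ cells with vehicle, 16.8, 20.99 and 21.4 CPM with tau and 27.9, 34.9 and 35.99 CPM with HT-DNA. The *Cgas*-/- libraries had 39 to 44 counts with tau (1.63 to 1.76 CPM) and 0 or 1 count in each of the 6 vehicle and HT-DNA libraries. It rose by 2.02 ± 0.18 with tau (edgeR adjusted p = 6.84e-10) and 2.76 ± 0.18 with HT-DNA (adjusted p = 2.48e-13) in *Cgas*+/+ cells. Folds against the *Cgas*-/- vehicle or HT-DNA group are bounds, taken against a floor of 3 counts per library. On that footing *Ifi44* was at least 11.2-fold higher with tau than with vehicle in *Cgas*-/- cells.

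Tau fibrils raised 5 of the 10 members past both thresholds in *Cgas*+/+ cells, against a background of 2.89% of 13675 genes called higher. The 5 were *Mx1*, *Mx2*, *Rsad2*, *Isg20* and *Ifi44*, and 9 of 10 had an adjusted p under 0.05 at any fold, with every tau library above every vehicle library, against 15.8% of genes that were higher at that adjusted p. The median log2 fold change of the 10 was 1.10, beside -0.01 over all genes tested. HT-DNA raised 7 of 10, those 5 with *Ifitm3* and *Eif2ak2*, against 5.29% of genes, with a median of 1.74 beside -0.03. Both treatments were set against the same vehicle libraries. In the direct comparison tau gave lower levels than HT-DNA for *Mx1* (-1.05 ± 0.15, edgeR adjusted p = 3.74e-06), *Rsad2* (-1.06 ± 0.23, adjusted p = 0.000587) and *Isg20* (-1.22 ± 0.10, adjusted p = 9.01e-11), 3 of 10 members against 1.49% of genes called lower. Without *Cgas*+/+ tau replicate 2 only *Isg20* of these stayed beyond the fold threshold, so 1 of 10 was called. Another 5 members had an adjusted p under 0.05 at smaller differences, from -0.30 ± 0.07 for *Bst2* to -0.91 ± 0.12 for *Mx2*, with *Eif2ak2* at -0.31 ± 0.08, *Ifitm3* at -0.40 ± 0.09 and *Ifi44* at -0.74 ± 0.15, against 17.8% of genes lower at that adjusted p. *Ifitm2* differed by 0.00 ± 0.10 (adjusted p = 0.995).

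With vehicle alone the genotypes were far apart. In that state, 8 of 10 members were called lower in *Cgas*-/- than in *Cgas*+/+ microglia, against 7.35% of genes. For 9 of the 10 every *Cgas*-/- library lay below every *Cgas*+/+ library, with no share over all genes to set beside it. The difference was -6.72 ± 0.28 on the log2 scale for *Mx1* (105-fold, edgeR adjusted p = 2.70e-17), -6.08 ± 0.28 for *Mx2* (67.5-fold, adjusted p = 1.94e-16) and -6.85 ± 0.33 for *Rsad2* (116-fold, adjusted p = 4.64e-16), and *Ifi44* was at least 31.6-fold lower. *Isg20* (-2.62 ± 0.20), *Eif2ak2* (-2.35 ± 0.09), *Ifitm3* (-1.40 ± 0.10) and *Bst2* (-1.37 ± 0.07) were lower by smaller factors, with edgeR adjusted p from 7.33e-18 for *Eif2ak2* to 1.56e-11 for *Isg20*. *Zc3hav1* differed by -0.35 ± 0.06 (adjusted p = 5.98e-06), short of the fold threshold. *Ifitm2* differed the other way, by 0.53 ± 0.10 (adjusted p = 5.25e-05). The median over the 10 was -2.48, with *Ifi44* at its bound, beside -0.01 over all genes.

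Tau fibrils also raised members in *Cgas*-/- microglia. There 7 of 10 passed both thresholds, against 2.46% of genes called higher. For all 10 every tau library was above every vehicle library, including *Ifitm2*, which did not pass the test. The share of all genes so separated was not computed. *Rsad2* rose by 6.13 ± 0.33 (69.9-fold, edgeR adjusted p = 1.21e-14), *Mx1* by 5.45 ± 0.30 (43.8-fold, adjusted p = 2.76e-14) and *Mx2* by 4.88 ± 0.32 (29.5-fold, adjusted p = 1.31e-12). *Isg20* rose by 2.22 ± 0.21 (adjusted p = 2.55e-09), *Eif2ak2* by 2.10 ± 0.09 (adjusted p = 2.35e-16) and *Ifitm3* by 1.5 ± 0.09 (adjusted p = 4.86e-13). *Bst2* (0.96 ± 0.07) and *Zc3hav1* (0.59 ± 0.06) fell short of the fold threshold, with edgeR adjusted p = 1.02e-11 and 2.58e-09, and *Bst2* passed it without *Cgas*-/- vehicle replicate 2 (1.01) and reached it without tau replicate 3. The median over the 10 was 2.16 beside 0.01 over all genes.

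With HT-DNA, a ligand that cGAS senses, most members of *Cgas*-/- cells had levels near those with vehicle. All 10 fitted differences were above 0, that of *Ifi44* at its floor. None of the 10 was called by edgeR or by DESeq2, where 0.0146% of genes were called higher by edgeR. In edgeR 1 of the 10, *Rsad2*, had an unadjusted p under 0.05, beside 1688 of all 13675 genes. *Rsad2* differed by 1.35 ± 0.36 (edgeR adjusted p = 0.0602), and every HT-DNA library was above every vehicle library. It was called when the fit held only these 2 groups (adjusted p = 0.00501), with a filter of at least 10 counts in total (adjusted p = 0.0165) and without *Cgas*-/- HT-DNA replicate 1 (adjusted p = 0.0470), and not without *Cgas*-/- HT-DNA replicate 2, its highest library (0.77, adjusted p = 0.454). The median over the 10 was 0.25 beside 0.01 over all genes. For *Mx1* (0.59 ± 0.53, edgeR adjusted p = 0.721) every HT-DNA library was also above every vehicle library, narrowly (lowest 1.643 and highest 1.616 CPM).

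**Figure D2:**
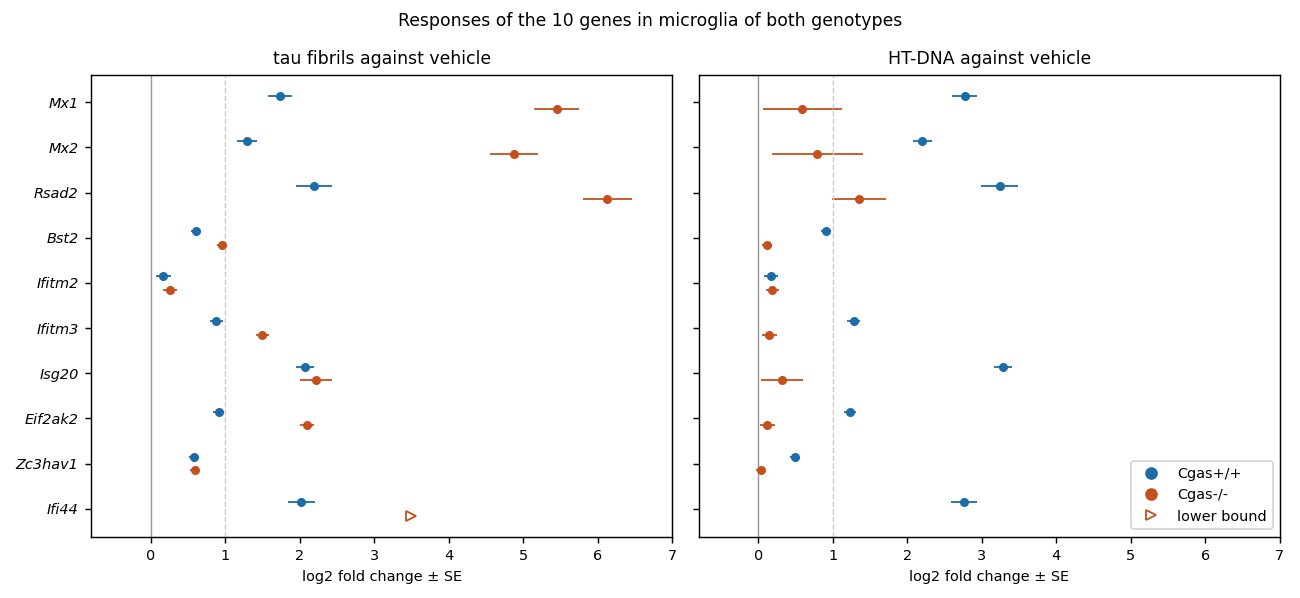
Log2 fold change with its SE of each member against vehicle, for tau fibrils (left) and HT-DNA (right), in *Cgas*+/+ (blue) and *Cgas*-/- (orange) microglia, 3 libraries per group, with the dashed line at the fold threshold of 1. The open arrowhead is the lower bound of *Ifi44* in *Cgas*-/- cells, which has no value for HT-DNA. Tau differences are as large or larger in *Cgas*-/- cells, while HT-DNA differences are smaller there for 8 of the 9 members with a value, all but *Ifitm2*.

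The genotypes also differed under treatment. With tau, 7 of 10 members were lower in *Cgas*-/- cells, against 7.41% of genes called lower. The difference was -2.99 ± 0.17 for *Mx1*, -2.48 ± 0.14 for *Mx2*, -2.91 ± 0.25 for *Rsad2*, -3.53 ± 0.21 for *Ifi44*, -2.47 ± 0.12 for *Isg20*, -1.16 ± 0.08 for *Eif2ak2* and -1.02 ± 0.07 for *Bst2*, with edgeR adjusted p of at most 7.23e-11. The *Bst2* value lies at the fold threshold and was not called without *Cgas*+/+ tau replicate 1 (-0.96) or 3 (-0.99) or *Cgas*-/- tau replicate 3 (-0.97). *Ifitm3* (-0.78 ± 0.09), *Zc3hav1* (-0.34 ± 0.06) and *Ifitm2* (0.61 ± 0.10) fell short of it. *Cgas*-/- cells with tau held 8.64% of the *Cgas*+/+ tau level for *Ifi44*, 12.6% for *Mx1*, 13.3% for *Rsad2*, 17.9% for *Mx2*, 18.1% for *Isg20*, 44.8% for *Eif2ak2*, 49.3% for *Bst2*, 58.1% for *Ifitm3* and 78.9% for *Zc3hav1*. Against *Cgas*+/+ cells with vehicle, the *Cgas*-/- tau libraries were all lower for *Mx1*, *Mx2*, *Bst2* and *Ifi44*, overlapped for *Rsad2*, *Ifitm3*, *Isg20* and *Eif2ak2*, and were all higher for *Ifitm2* and *Zc3hav1*. That pair of groups differs in genotype and treatment and was not tested. Under HT-DNA, 8 of 10 were lower in *Cgas*-/- cells, against 11.8% of genes, with a median difference of -4.52 beside 0.05 over all genes, and *Mx1* was 479-fold lower (-8.90 ± 0.26, edgeR adjusted p = 1.09e-21) and *Rsad2* 429-fold lower (-8.75 ± 0.33, adjusted p = 4.59e-19). *Mx2* (-7.48 ± 0.21), *Isg20* (-5.59 ± 0.15), *Eif2ak2* (-3.45 ± 0.09), *Ifitm3* (-2.53 ± 0.09) and *Bst2* (-2.16 ± 0.07) were lower too, with edgeR adjusted p of at most 2.88e-19, and *Ifi44* was at least 244-fold lower. *Zc3hav1* differed by -0.81 ± 0.06 and *Ifitm2* by 0.55 ± 0.10, short of the fold threshold.

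The test of the difference between the responses gave opposite signs for the 2 treatments. For tau, the log2 response was smaller in *Cgas*+/+ than in *Cgas*-/- cells for 7 of 10 members, against 3.61% of genes called in that direction. The interaction, coded as the *Cgas*+/+ response minus the *Cgas*-/- response, was -3.73 ± 0.38 for *Mx1* (edgeR adjusted p = 1.03e-07), -3.60 ± 0.40 for *Mx2* (adjusted p = 3.58e-07), -3.94 ± 0.40 for *Rsad2* (adjusted p = 7.72e-08), -1.19 ± 0.12 for *Eif2ak2* (adjusted p = 1.29e-07) and -0.62 ± 0.13 for *Ifitm3* (adjusted p = 0.00258). *Bst2*, at -0.35 ± 0.10 (adjusted p = 0.0234), did not pass with DESeq2 (adjusted p = 0.0622), nor without *Cgas*+/+ tau replicate 2, *Cgas*-/- vehicle replicate 1 or 3, or *Cgas*-/- tau replicate 1 (adjusted p 0.0575 to 0.0683). The fitted interaction of *Ifi44* rests on the floor of its *Cgas*-/- vehicle group and was not called without any one of the 3 libraries of that group (adjusted p 0.056 to 0.116). *Isg20* (-0.15 ± 0.26, adjusted p = 0.811), *Zc3hav1* (-0.01 ± 0.08, adjusted p = 0.966) and *Ifitm2* (-0.09 ± 0.14, adjusted p = 0.796) did not pass the test. For HT-DNA the response was larger in *Cgas*+/+ cells for 7 of 10, against 16.6% of genes called in that direction, from 0.46 ± 0.08 for *Zc3hav1* (adjusted p = 3.36e-05) to 2.97 ± 0.33 for *Isg20* (adjusted p = 2.92e-08). Between them lay *Bst2* (0.79 ± 0.10), *Eif2ak2* (1.10 ± 0.13), *Ifitm3* (1.13 ± 0.13), *Rsad2* (1.89 ± 0.45) and *Mx1* (2.18 ± 0.61). *Ifitm2* was at -0.02 ± 0.14, and *Ifi44* has no value because its *Cgas*-/- groups are at the floor. *Mx2* differed by 1.41 ± 0.68 (adjusted p = 0.116), and was called with DESeq2 (1.45, adjusted p = 0.00516) and without *Cgas*+/+ vehicle replicate 1 or 2 or *Cgas*-/- HT-DNA replicate 2 (1.16 to 1.94).

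The order of the genotypes for tau turned with the scale. Counted as CPM gained over vehicle, tau added more in *Cgas*+/+ cells for 9 of 10 members: 352 ± 48.3 against 61.9 ± 1.48 CPM for *Mx1* and 2554 ± 372 against 429 ± 12.4 CPM for *Rsad2* (SE, n = 3 per group). The gains were closer for *Bst2* (196 ± 37.7 and 137 ± 11.6 CPM), *Eif2ak2* (143 ± 20.4 and 105 ± 3.29 CPM), *Ifitm3* (119 ± 23.1 and 97.5 ± 9.78 CPM) and *Zc3hav1* (155 ± 21.6 and 124 ± 12.3 CPM). The difference of gains on the CPM scale was not tested for any member. How large a share of all genes gained more in *Cgas*+/+ cells was not computed.

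Genes of the same pathways were described by lists. As the background to their counts, tau raised 2.89% of all genes in *Cgas*+/+ and 2.46% in *Cgas*-/- cells. With vehicle 7.35% of all genes were called lower in *Cgas*-/- cells. Of the genes of type I interferon signalling, tau raised 4 of 12 tested in *Cgas*+/+ and 6 of 12 in *Cgas*-/- cells, with *Usp18* (1.59 ± 0.14 and 5.28 ± 0.25) and *Irf7* (1.57 ± 0.12 and 4.83 ± 0.17) among them, edgeR adjusted p at most 4.15e-10. USP18 restrains interferon receptor signalling and IRF7 drives transcription of interferon genes. *Ifnb1*, the interferon-β gene, had 71 to 96 counts per library with HT-DNA in *Cgas*+/+ cells but 1 to 11 with tau and 0 to 10 with vehicle, and 0 or 1 count in every *Cgas*-/- library. Of other antiviral effectors, 12 of 18 tested rose with tau in *Cgas*+/+ and 15 of 18 in *Cgas*-/- cells, led by *Oasl1* (2.74 ± 0.14), *Ifit2* (2.07 ± 0.19) and *Isg15* (2.02 ± 0.15) in the former and *Ifit3* (6.28 ± 0.32), *Ifit2* (6.16 ± 0.27) and *Ifit1* (6.05 ± 0.31) in the latter. With vehicle 16 of those 18 were lower in *Cgas*-/- cells. Of relatives and partners of the members, 5 of 15 tested rose with tau in *Cgas*+/+ cells, *Dnm1* (2.29 ± 0.73, edgeR adjusted p = 0.0172), *Cmpk2* and *Parp14* (1.26 ± 0.10) by the most. The *Dnm1* value rests on very low mean levels, 0.0864 CPM with vehicle and 0.409 CPM with tau. In *Cgas*-/- cells 3 of 15 rose, namely *Cmpk2* (5.84 ± 0.31), *Parp14* (3.04 ± 0.11) and *Parp12* (2.04 ± 0.08). *Zc3hav1l* and the other kinases of eIF2α in the list (*Eif2ak1*, *Eif2ak3* and *Eif2ak4*) were called with tau in neither genotype. *Ifi44l*, 8777 bases from *Ifi44*, had no count in any of the 18 microglial libraries.

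In hippocampi, 3 of the 9 members tested were called higher in *P301S* mice, against a background of 1.32% of 16453 genes, and the fitted difference was above 0 for each of the 9. *Ifi44*, *Rsad2* and *Eif2ak2* passed. The median over the 9 was 1.45 beside 0.00 over all genes. These values come from whole tissue, where more cells of a type and more RNA per cell cannot be told apart.

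*Ifi44* read 0.238 to 0.738 CPM in Ntg mice (median 0.455) and 0.396 to 10.1 CPM in *P301S* mice (median 4.75). In *P301S* mice 4 were at 4.29 CPM or higher and the other 2 lay within the Ntg range. It was higher by 3.15 ± 0.63 (8.91-fold, edgeR adjusted p = 0.0303). *Rsad2* read 0.701 to 1.81 CPM in Ntg mice (median 1.10) and 1.26 to 7.68 CPM in *P301S* mice (median 2.86), higher by 1.83 ± 0.39 (3.56-fold, adjusted p = 0.0363). *Eif2ak2* read 4.29 to 5.31 CPM in Ntg mice (median 4.76) and 4.07 to 13.9 CPM in *P301S* mice (median 11.3), with 5 of 6 above every Ntg mouse. It was higher by 1.03 ± 0.21 (2.05-fold, adjusted p = 0.0326).

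The other tested members missed the threshold in this fit. *Ifitm3* read 5.72 to 13.4 CPM in Ntg mice (median 6.99) and 5.96 to 43.9 CPM in *P301S* mice (median 20.2), a difference of 1.5 ± 0.39 (edgeR adjusted p = 0.0654). *Mx2* (1.53 ± 0.38, adjusted p = 0.0583) and *Bst2* (1.45 ± 0.41, adjusted p = 0.0875) were near it in size. *Mx2* read 0.342 to 0.807 CPM in Ntg mice and 0.701 to 3.297 CPM in *P301S* mice, and *Bst2* 1.83 to 4.81 and 2.10 to 17.1 CPM, with overlap between the groups for both. *Isg20* (1.12 ± 0.37, adjusted p = 0.136) and *Zc3hav1* (0.73 ± 0.23, adjusted p = 0.114) had smaller differences. *Isg20* read 0.326 to 0.683 CPM in Ntg and 0.264 to 2.20 CPM in *P301S* mice, and *Zc3hav1* 6.59 to 10.8 and 5.72 to 20.7 CPM, so the groups overlapped. *Ifitm2* read 1.40 to 3.53 CPM in Ntg and 1.42 to 3.45 CPM in *P301S* mice, 0.25 ± 0.24 apart (adjusted p = 0.683). *Mx1* did not pass the filter on low counts, with 2 to 4 counts in Ntg mice, near the floor of 3, and 5 to 114 counts in *P301S* mice (0.165 to 3.49 CPM). It was the only member for which every *P301S* mouse was above every Ntg mouse. An exact two-sided permutation test of its mean log2(CPM + 1) gave a difference of 1.06 on that scale and p = 0.000583 over 1716 assignments, the smallest that these assignments allow.

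**Figure D3:**
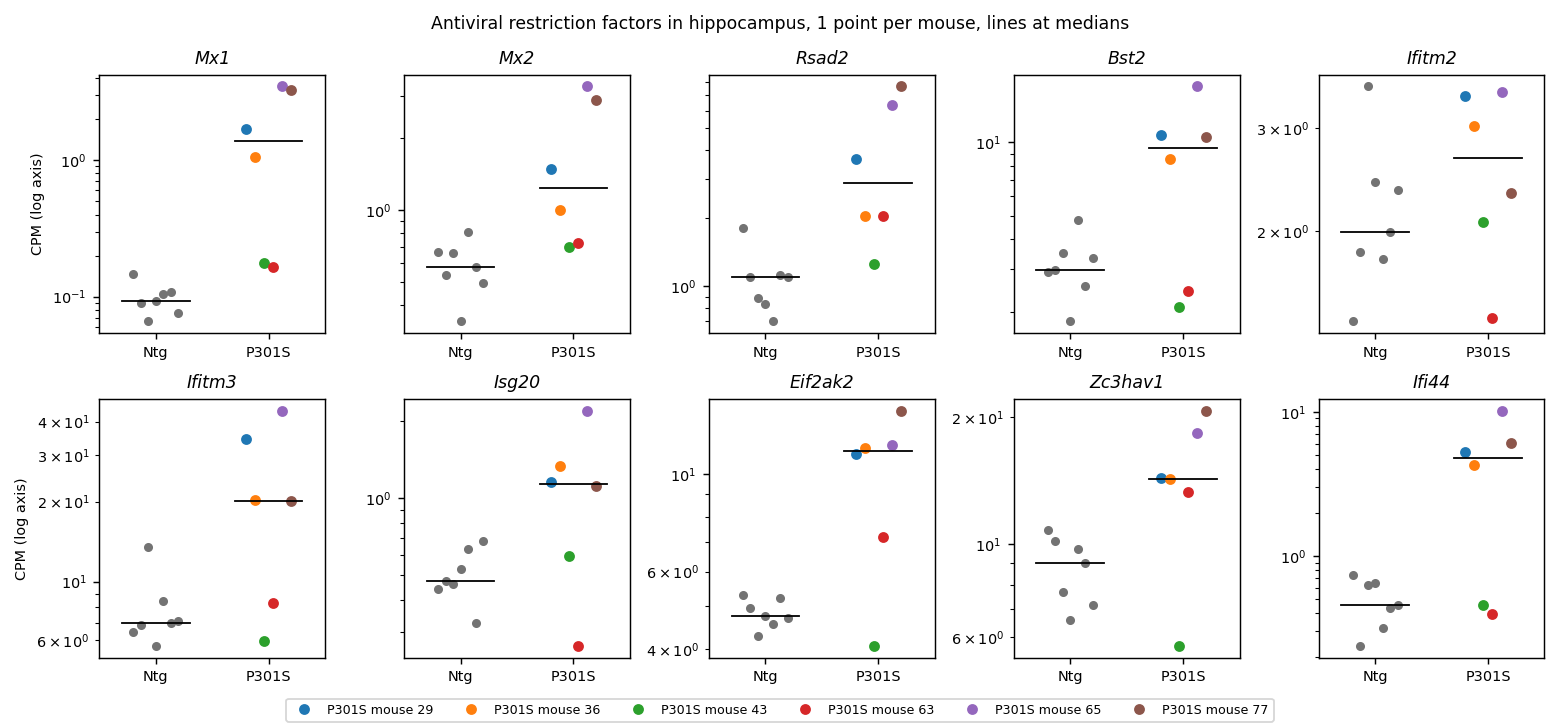
CPM of each member on a log axis, scaled separately for each gene, in 7 Ntg (grey) and 6 *P301S* hippocampi (1 colour per mouse), with lines at the medians. Mice 29, 36, 65 and 77 lie above every Ntg mouse for 9 members, mouse 63 for 4 and mouse 43 for 1.

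The same *P301S* mice were high for nearly every member. Mice 29, 36, 65 and 77 were above every Ntg mouse for 9 of 10 members, all but *Ifitm2*. Mouse 63 was above every Ntg mouse for 4 (*Mx1*, *Rsad2*, *Eif2ak2* and *Zc3hav1*) and mouse 43 for 1 (*Mx1*). In mice 43 and 63 *Mx1* had only 5 counts, against 2 to 4 in Ntg mice. The share of all genes above every Ntg mouse was not computed for any of these mice. The calls depended on single mice. Leaving out mouse 43 or mouse 63 gave 7 called members of 9, leaving out Ntg mouse 55 gave 1, leaving out *P301S* mouse 77 left 3, and leaving out any one of the other 9 mice, 6 of them Ntg, gave none. Over these 13 fits the *Ifi44* difference was 2.72 to 3.40, with edgeR adjusted p from 0.00267 to 0.0859. With all 13 mice DESeq2 called 7 of 9, against 3.23% of genes called higher by that tool and 1.32% by edgeR.

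Markers of several cell types were high in the same mice. Of these, only the homeostatic microglia markers were examined as a covariate, and the part of the others in the member results was not tested. The 7 homeostatic markers summed to 337 to 420 CPM in Ntg mice, to 336 and 378 CPM in *P301S* mice 43 and 63, and to 527 to 727 CPM in the other 4. Their median log2 fold change between the genotypes was 0.17, so the sum need not stand for each marker. The 6 astrocyte markers summed to 4360 to 5194 CPM in Ntg mice, 4683 and 4854 CPM in mice 43 and 63, and 6329 to 8307 CPM in the other 4. The 7 T cell markers summed to 2.74 to 4.73 CPM in Ntg mice, 3.16 and 2.41 CPM in mice 43 and 63, and 5.01 to 6.61 CPM in the other 4. The 9 disease-associated microglia markers summed to 3241 to 3860 CPM in mice 29, 36 and 65, but mouse 77, at 2046 CPM, lay in the Ntg range of 1555 to 2236 CPM. Of the disease-associated markers 5 of 9 were called higher in *P301S* mice, as was 1 of 6 astrocyte markers, and no homeostatic, endothelial, neuronal, oligodendrocyte, T cell, fibroblast or choroid plexus marker was called. The covariate was the mean log2 CPM of the homeostatic markers, not the sum given above. With that covariate, none of the 9 members was called by edgeR, against 0.128% of genes called higher. In DESeq2 1 of 9, *Eif2ak2* (0.63, adjusted p = 0.0425), was called, against 0.972%, in a fit added after seeing the data. In the edgeR fit 4 of the 9 had an unadjusted p under 0.05 (*Rsad2*, *Mx2*, *Eif2ak2* and *Ifi44*), beside 1530 of all 16453 genes. The difference of *Ifi44* was 1.27 (adjusted p = 0.351), that of *Rsad2* 1.22 (adjusted p = 0.280) and that of *Eif2ak2* 0.62 (adjusted p = 0.235). Choroid plexus markers varied between dissections, from 435 to 3875 CPM in Ntg and 97.2 to 5495 CPM in *P301S* mice, and their part in the results was not tested.

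**Figure D4:**
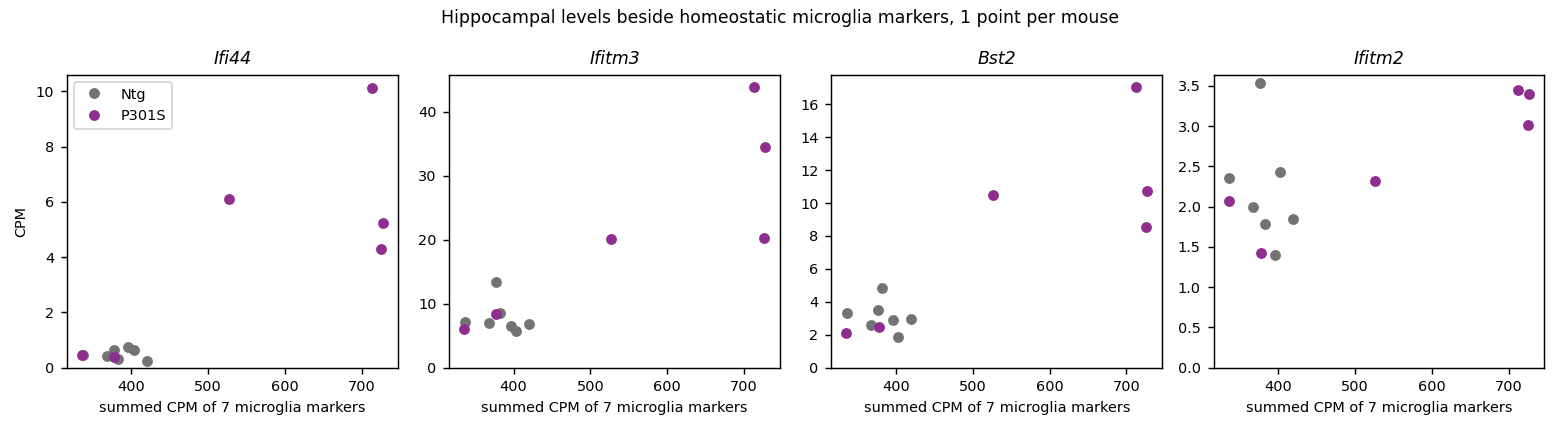
CPM of *Ifi44*, *Ifitm3*, *Bst2* and *Ifitm2* (vertical axes) beside the summed CPM of 7 homeostatic microglia markers (horizontal axes) in 7 Ntg (grey) and 6 *P301S* (purple) hippocampi, 1 point per mouse. The 4 *P301S* mice with 527 CPM or more of the markers hold the highest *Ifi44*, *Ifitm3* and *Bst2*. For the genes shown the other 2 *P301S* mice lie among the Ntg mice. Members not shown differ in this, since mouse 63 was above every Ntg mouse for *Mx1*, *Rsad2*, *Eif2ak2* and *Zc3hav1*.

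The sexes were compared directly. The interaction of sex with genotype, coded as the male minus the female difference, was called for none of the 9 members by edgeR or DESeq2, and none had an unadjusted p under 0.05. Over all genes 0% of 16453 were called by edgeR and 1087 genes by DESeq2, and 3897 had an unadjusted p under 0.05 in edgeR. The *Ifi44* difference was 3.41 ± 1.02 in females and 2.91 ± 0.90 in males, and that of *Eif2ak2* 0.81 ± 0.33 and 1.23 ± 0.30, with edgeR adjusted p of 0.0747 and 0.139 in females and 0.200 and 0.176 in males. With sex as a covariate *Rsad2* was no longer called (1.84, adjusted p = 0.0540).

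For the lists of related genes in hippocampi the background is the 1.32% of all genes called higher. How far the calls in these lists depend on single mice was not examined. Of the interferon signalling list 3 of 11 tested were called higher, *Usp18* (2.71 ± 0.54), *Irf7* (2.42 ± 0.46) and *Irf9* (1.24 ± 0.24), each with edgeR adjusted p = 0.0303. Of 16 other antiviral effectors tested 7 were called higher, with *Oas1a* (2.75 ± 0.58), *Isg15* (2.57 ± 0.56) and *Oasl2* (2.56 ± 0.50) the largest. Of 16 relatives and partners tested 2 were, *Parp14* (1.58 ± 0.35, adjusted p = 0.0430) and *Parp12* (0.72 ± 0.16, adjusted p = 0.0371). *Ifnb1* had 0 or 1 count in each of the 13 hippocampi.

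As a description of likeness, the 5 other genes whose log2 CPM followed the mean standardised profile of the members most closely were *Oasl1*, *Gbp2*, *Ifi47*, *Slfn2* and *Tap1* over the 18 microglial libraries (Pearson r 0.996 to 0.997) and *Irf7*, *Usp18*, *Parp14*, *Rtp4* and *Xaf1* over the 13 hippocampi (r 0.983 to 0.986). The libraries of a group share treatment or genotype, so they are not independent points. Each member's correlation with the mean of the other members was 0.95 to 0.99 in microglia, except for *Ifitm2* at -0.60, and 0.81 to 0.98 in hippocampi, except for *Ifitm2* at 0.54.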

How the data were processed

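RNA was sequenced from 13 hippocampi and 18 libraries of primary mouse microglia, with a QuantSeq 3′ kit per the labels. The authors deposited raw read counts per gene, 1 table per experiment, on GRCm38. The submitters' processing notes name edgeR and limma without versions, and the aligner, counter and annotation are not given in the sources used here. The deposited counts were used as they stand. Groups came from the sample labels, and sexes from the labels of the hippocampi.

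Genes were kept by filterByExpr, library sizes were scaled by TMM, and comparisons were tested with edgeR's quasi-likelihood test (edgeR 4.0.16, limma 3.58.1, R 4.3.3) with Benjamini-Hochberg adjustment. Hippocampi were fitted together, and the 6 microglial groups shared 1 fit. Total counts set the precision, and a level of 3 counts or fewer in every library of a group was treated as a floor. The fitting script was tested on simulated data. DESeq2 1.42.0, RLE scaling, other filters, covariates, a replicate block and omission of each library were tried as alternatives. Among same-numbered microglial libraries 45 pairs had correlations of deviations from -0.124 to 0.154, with 1 over 0.1. No shared effect of a number was seen, and whether same-numbered libraries were matched is not known. No 2 libraries of a group agreed within sampling noise, the lowest chi-square per degree of freedom being 2.32. In microglia *Cgas*-/- HT-DNA replicate 1 stood apart, at 22.4 and 28.1 against replicates 2 and 3. Within the other microglial groups the value was at most 10.7.

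All 10 members are covered in every comparison where they were tested, most by name and some by a count or range. From each list of related genes the called genes with the largest differences are named, at most 3 in each direction, and 1 gene that this rule names is not reported here. *Cmpk2*, *Ifi44l*, *Zc3hav1l*, the *Eif2ak* kinases and *Ifnb1* were named in addition, as relatives or neighbours of members or as the interferon gene, after their values were seen. The members and lists were chosen with earlier results of these data known.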

Additional observations from a re-analysis of the deposited data

Results flagged for a closer look

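The difference in response between genotypes was itself tested, by the interaction in edgeR, and it passed for these members. For tau the *Cgas*+/+ response minus the *Cgas*-/- response was -3.73 for *Mx1*, -3.60 for *Mx2*, -3.94 for *Rsad2*, -0.35 for *Bst2*, -0.62 for *Ifitm3* and -1.19 for *Eif2ak2*. The fitted value for *Ifi44* was -3.42, which rests on a *Cgas*-/- vehicle group of 0 or 1 count per library. For HT-DNA the same difference was 2.18 for *Mx1*, 1.89 for *Rsad2*, 0.79 for *Bst2*, 1.13 for *Ifitm3*, 2.97 for *Isg20*, 1.10 for *Eif2ak2* and 0.46 for *Zc3hav1*.

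In hippocampi a single Ntg mouse stood apart from the other 6 for *Rsad2* (mouse 35, 1.81 CPM, the next at 1.12 CPM) and another for *Ifitm3* (mouse 55, 13.4 CPM, the next at 8.45 CPM). Each gap exceeded Dixon's critical value. Of 20 groups examined in this way these were 2, and chance flags about 1 in 20.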

How the results depend on the processing

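In hippocampi the number of members called was 3 of 9, 7 with DESeq2, 0 with the homeostatic microglia markers as a covariate in edgeR, 1 with that covariate in DESeq2 (a setting chosen after seeing the data), and 0 to 7 when single mice were left out. *Ifitm2* turned to -0.04 with that covariate in edgeR and -0.03 in DESeq2. In microglia without a minimum fold change 9 members were called with tau and 8 for tau against HT-DNA in *Cgas*+/+ cells. The latter was 1 to 3 when single libraries were left out. For HT-DNA in *Cgas*-/- cells 1 member, *Rsad2*, was called with no filter on low counts, with at least 10 counts in total (a setting chosen after seeing the data) and with only the compared groups, and 0 to 1 when single libraries were left out. The fit with no filter took no spread from single genes, so its p-values were not relied on.

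Signs turned for members near 0 that passed no test. For tau against HT-DNA *Ifitm2* was -0.03 with DESeq2, -0.03 with RLE scaling, -0.00 with no filter and -0.00 with at least 10 counts in total, and -0.08 to 0.13 when single libraries were left out. Its interaction with HT-DNA was 0.02 with DESeq2, 0.02 with RLE scaling and 0.04 with only the compared groups, and -0.14 to 0.05 without single libraries. The tau interaction of *Zc3hav1* was 0.01 with DESeq2 and 0.01 with RLE scaling, and -0.09 to 0.07 without single libraries. Without single libraries the tau interaction of *Isg20* was -0.36 to 0.03, and the HT-DNA difference in *Cgas*-/- cells -0.25 to 0.75 for *Ifi44* and -0.01 to 0.08 for *Zc3hav1*.

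With a replicate block 5 members were called for tau and 7 for HT-DNA in *Cgas*+/+ cells, 7 for tau and 0 for HT-DNA in *Cgas*-/- cells, and the block changed no count of members called. The causes of these changes were not tested. Counts near the floor, as for *Ifi44* and *Mx1*, limit the folds that can be given.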

Other observations

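*Ifi44l*, the neighbour of *Ifi44*, had 0 counts in all 18 microglial libraries, 0 to 2 counts in Ntg hippocampi and 1 to 66 counts in *P301S* hippocampi. *Ifitm6*, another gene of the *Ifitm* cluster, differed between genotypes with vehicle in the same direction as *Ifitm2*, by 1.30 ± 0.34 on the log2 scale (edgeR adjusted p = 0.00204), at mean levels of 1.45 CPM in *Cgas*-/- and 0.585 CPM in *Cgas*+/+ microglia.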
